A study of Mus musculus with 7 samples.

Results

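The nuclear genes of the mitochondrial respiratory chain, complexes I to V, were followed in RNA sequencing of mouse splenocytes. They were chosen by symbol: Nduf genes of the a, b, c, s and v series (complex I), Sdha to Sdhd (complex II), Uqcr genes (complex III), Cox4 to Cox8 genes (complex IV) and Atp5 genes (complex V). A symbol of the Cox4 to Cox8 series was set aside by the rule and is not reported here. The rule gave 91 of the 23845 genes listed. Of these, 82 had a mean level of at least 1 FPKM and entered the tests with 10065 genes in all. FPKM are fragments scaled by transcript length and by the mapped fragments of the library, so levels can be compared between genes. Of the 82, 43 belonged to complex I, 4 to II, 8 to III, 12 to IV and 15 to V. The measured levels of the members did not enter the choice, apart from the minimum.

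The cells were spleen cells of C57Bl/6 mice that had been depleted magnetically of cells carrying CD43, a procedure that leaves mostly resting B cells. The 4 knockout libraries (cKO 1 to 4) came from mice with a conditional deletion of Foxp1, a forkhead transcription factor of lymphocytes, made with a Cre that is active in B cells. The 3 wild type libraries came from B6 mice for which the labels name no Cre, so an effect of Cre itself cannot be told apart from that of the deletion. The question of the design is how the B cell transcriptome differs without Foxp1. The labels do not say whether libraries came from separate animals, and p-values measure the spread between these libraries, which may be technical. Lane 5 held wild type 2 and 3 with cKO 1 and 4, and lane 7 held wild type 1 with cKO 2 and 3.

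Foxp1 itself was at 33.4, 38.3 and 42.7 FPKM in wild type 1 to 3 and at 21.3, 18.9, 18.4 and 29.0 FPKM in cKO 1 to 4, and the groups did not overlap (limma adjusted p = 0.159 without a lane term and 0.0104 when the lane was added). B cell markers were present in all 7 libraries, with a summed level of 2194 to 2601 FPKM over 9 genes in wild type and 1286 to 2041 FPKM in cKO. Markers of monocytes, macrophages and dendritic cells summed to 272.4 to 581.7 FPKM in wild type and 1010 to 1437 FPKM in cKO over 15 genes. Of these, 15 had a positive difference of cKO from wild type and 5 were called higher in cKO without a lane term. Over all 10065 genes tested, 3874 had a positive difference and 128 were called higher. Erythroid markers ranged from 106.9 FPKM in wild type 3 to 3503 FPKM in cKO 3, and 9 of 9 tested were called higher in lane 7, against 8.67% of all genes. Between genotypes 9 of 9 had a positive difference (median log2 1.95) and 0 were called. Of 14 proliferation genes, 14 had a positive difference. None of the tested markers of these lists was at 0. In bulk RNA, fewer cells of a type and less RNA per cell cannot be told apart.

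The respiratory chain sits in the inner mitochondrial membrane. Complexes I and II pass electrons from NADH and succinate to ubiquinone, complex III passes them to cytochrome c, and complex IV passes them to oxygen. Complexes I, III and IV pump protons, and complex V, the ATP synthase, uses their return to make ATP. Most subunits are encoded in the nucleus, and some core subunits of all complexes but II are encoded in mitochondrial DNA. Those mitochondrial transcripts were not analysed here. B cell activation is known to raise mitochondrial mass and respiration.

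Across the libraries the members were abundant, and steady in FPKM without further scaling. Their median level was 40.8, 41.0 and 38.5 FPKM in wild type 1 to 3 and 39.4, 37.1, 40.6 and 43.7 FPKM in cKO 1 to 4. These levels lay within a narrow band, and the genotypes overlapped (40.1 ± 1.38 FPKM, SD, n = 3, and 40.2 ± 2.77 FPKM, SD, n = 4). The median member stood between the 90.6th and 92.6th percentile of the genes tested in each library. In contrast, the median of all genes tested ran from 5.25 FPKM in cKO 2 to 9.54 FPKM in cKO 4.

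The median SD of a member over the 7 libraries was 0.184 on the log2(FPKM + 0.5) scale, against 0.410 for all genes tested. Among the 8268 genes at or above the 5th percentile of the members' mean level it was 0.402. How far members and other genes differ in spread depended on the scaling. In limma without a lane term, the median standard error of the cKO difference was 0.21 for members and 0.30 for all genes. After each library was centred on its median it was 0.20 and 0.17, and after quantile normalization 0.15 and 0.18. Ndufa1, an accessory subunit of complex I, had the smallest SD of the 82 at 0.0712, with levels between 53.6 FPKM in wild type 3 and 61.1 FPKM in cKO 3. At the other end, Cox6b2 had an SD of 1.12, followed by the assembly factor Ndufaf1 at 0.459 and by Sdha at 0.438. The highest library exceeded the lowest by a median factor of 1.46, and by more than 2 for 6 of the 82 members. Ndufa1 and Ndufaf1 were chosen after their values were seen.

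**Figure D1:**
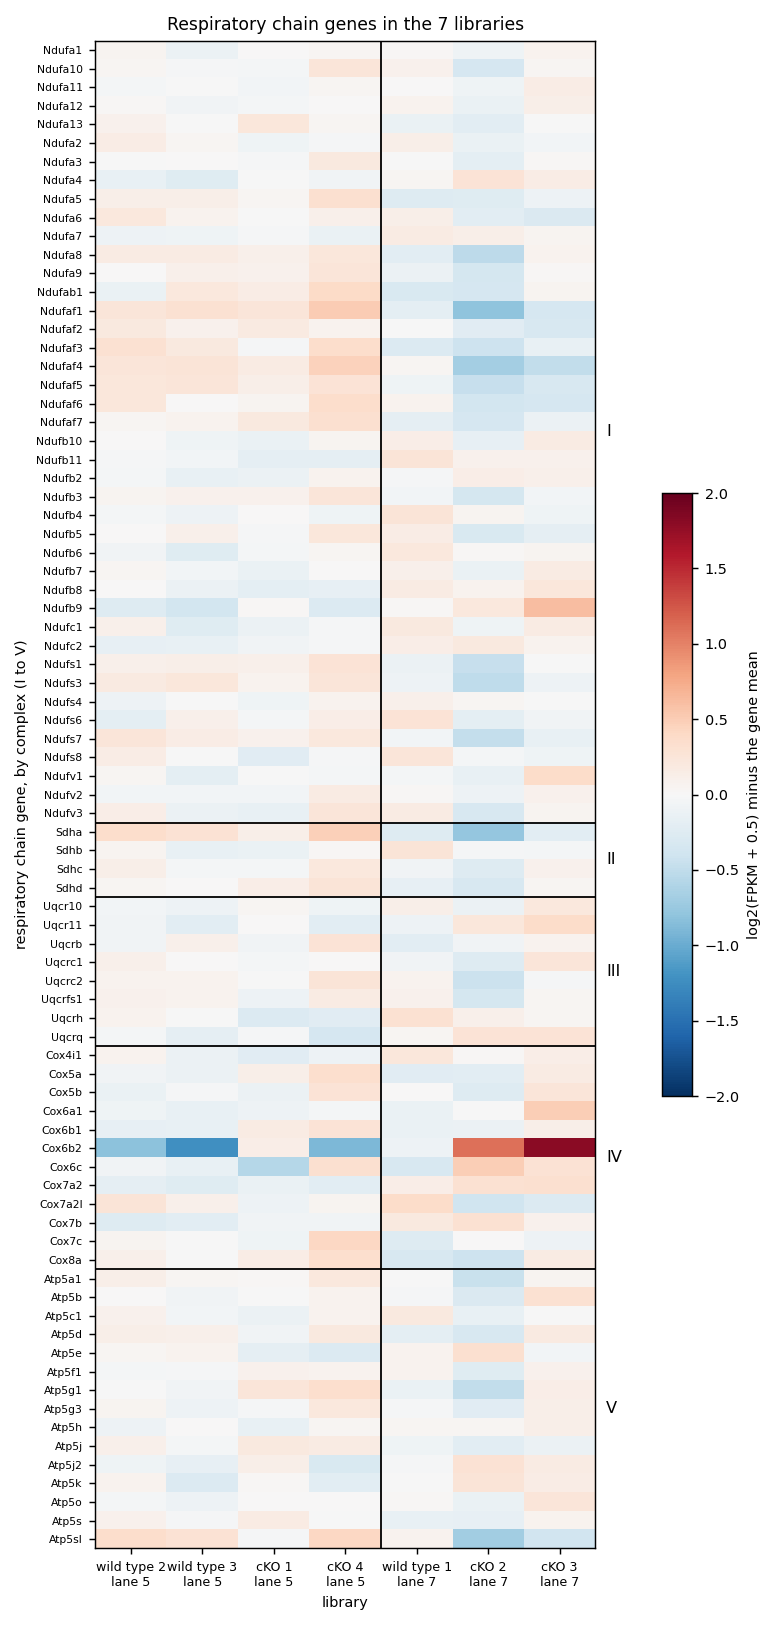
Each row is 1 of 81 of the 82 respiratory chain genes tested, by complex, and each column a library, with lane 5 to the left of the vertical line and lane 7 to the right. Colour gives log2(FPKM + 0.5) minus the mean of the gene over the 7 libraries. Most rows are pale, cKO 2 is the lowest library for 46 of the 82 genes, and Cox6b2 is the row with the strongest colours.

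Single libraries stood out among the 7. The library cKO 2 held the lowest level of 46 of the 82 members, including 25 of complex I and 11 of complex V, but only 3 of complex IV. The library cKO 4 held the highest level of 34 members, and cKO 3 that of 19. Relative to each gene's mean, the median member deviated by -0.18 in cKO 2 and 0.07 in cKO 4 on the log2 scale, while the median of all genes tested deviated by -0.45 and 0.41. In these libraries members and all genes deviated the same way, less in the members. In cKO 3 the median member deviated by 0.06 and the median of all genes by -0.22, and in wild type 1 by 0.02 and -0.21.

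The first comparison asked whether respiratory chain genes differed between cKO and wild type. In limma, which tests each gene across all genes with Benjamini-Hochberg adjustment, 0 of 82 members had an adjusted p under 0.05, against 133 of 10065 genes (1.32%). The count over all genes was 220 without wild type 1, 1 without wild type 2 and 0 without any 1 of the other libraries, and that of the members was 0 each time. At an unadjusted p under 0.05, 0 of 82 members passed, against 10.7% of all genes. When the lane was added to the model, 0 of 82 members were called against 10.8% of all genes, and 1, Cox6b2, had an unadjusted p under 0.05. The smallest adjusted p of a member was 0.52 without the lane term and 0.0521 with it, in Cox6b2 both times. In the authors' deposited table, 1 of the 82 members, again Cox6b2, had a q-value under 0.05 (q = 0.00458), against 15.2% of 12100 genes. The arms of that table are not tied to a genotype by any label, so it gives no direction here.

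Differences were small in both directions. The log2 fold change of cKO over wild type was positive in 40 members and negative in 42, and ran from -0.42 (Atp5sl) to 1.25 (Cox6b2). Over all genes tested, 3874 were positive and 6191 negative. The median was 0.00 for the members against -0.09 for all genes tested. In 78 of 82 members (95.1%) the estimate lay within a 1.25-fold change, as it did for 64.8% of all genes. When the lane was added it was 79 (96.3%) against 71.6%. A difference that misses the threshold may still be there, and the 95% intervals give its bounds. For 79 of 82 members (96.3%) the whole interval lay within a 2-fold change, and with the lane term for 81 (98.8%). Over all genes tested the shares were 58.1% and 83.9%. Within a 1.5-fold change the numbers were 43 (52.4%) and 68 (82.9%), against 7.01% and 57.1% of all genes. Changes of that size were thus not bounded for every gene.

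Groups of 3 and 4 libraries that do not overlap were found in 4 of 82 members (4.88%), against 10.1% of all genes. These were Cox6b1, higher in cKO, and Cox7a2l, Ndufs8 and Ndufa2, lower in cKO. The last of them was named after its values were seen, with 94.3 ± 3.82 FPKM (SD, n = 3) in wild type and 83.5 ± 2.46 FPKM (SD, n = 4) in cKO. None of the 4 passed the test (limma adjusted p of 0.536 to 0.915).

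**Figure D2:**
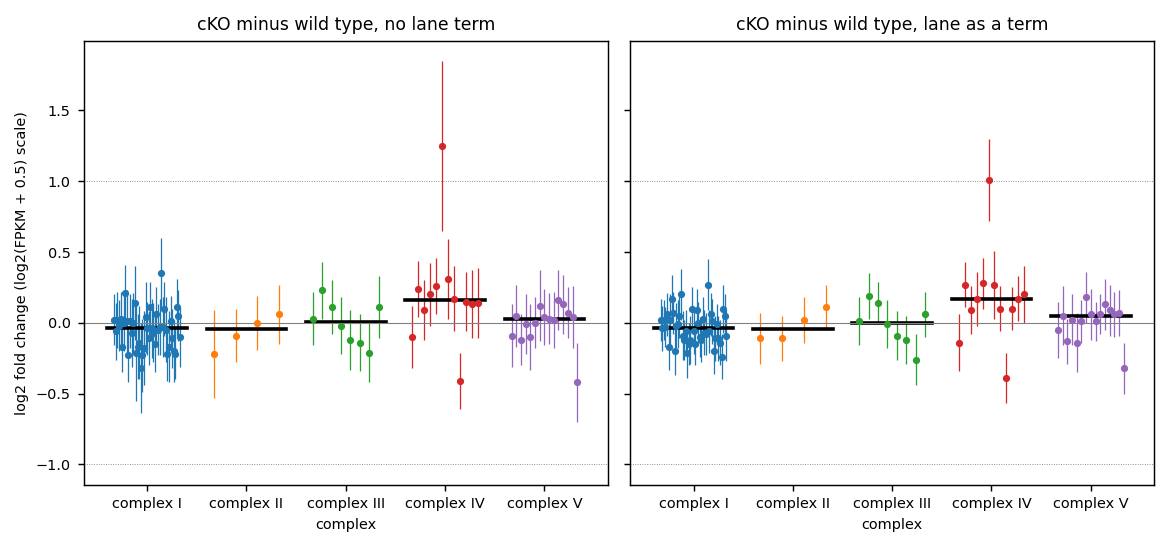
Points are the 82 genes by complex, with the log2 fold change of cKO over wild type on the log2(FPKM + 0.5) scale, bars are 1 standard error, black lines are medians and dotted lines mark a 2-fold change. The left panel has no lane term and the right panel has the lane as a term. Complex IV has a median of 0.16 and 0.17, the other complexes lie between -0.05 and 0.05, and Cox6b2 is the point above the upper dotted line.

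By complex, the median log2 fold change was -0.04 in complex I, -0.05 in II, 0.00 in III, 0.16 in IV and 0.03 in V. With the lane term the medians were -0.04, -0.04, 0.00, 0.17 and 0.05. In complex IV, 10 of 12 members had a positive difference, and the median was 0.15 within lane 5 and 0.19 within lane 7. It was 0.08 when libraries were centred on their median and the lane was a term. The medians of complexes I, II, III and V were then lower too, at -0.13, -0.13, -0.09 and -0.04. Core subunits had a negative difference in 13 of 17 (median -0.09), and accessory subunits in 22 of 55 (median 0.02). The core median was -0.11 with the lane term and -0.20 with centring and the lane term, and the accessory median 0.02 and -0.07. Over all genes the median was -0.09, with 6191 of 10065 negative. It was 0.00 with the lane term and -0.09 with centring and the lane term. None of these medians was tested.

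In wild type, the median level of the structural subunits followed the order of the complexes. It was 37.3 ± 1.30 FPKM in complex I, 40.6 ± 6.24 in II, 53.2 ± 1.37 in III, 68.1 ± 4.92 in IV and 83.0 ± 7.24 in V (SD, n = 3). Complexes I and II overlapped over the wild type libraries, and the other neighbours did not. In cKO the same medians were 35.9 ± 5.09, 39.4 ± 9.07, 53.5 ± 7.09, 72.4 ± 1.59 and 75.9 ± 4.89 FPKM (SD, n = 4). There complexes I and II, II and III, and IV and V overlapped over the libraries, and I to III held wider spreads than in wild type.

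Complex I, NADH dehydrogenase, is the largest of the 5 complexes. Its most abundant members were Ndufa3, Ndufa4 and Ndufa6. Ndufa3, an accessory subunit, was at 147.9, 147.7 and 149.2 FPKM in wild type 1 to 3 and at 145.8, 129.1, 150.9 and 169.4 FPKM in cKO 1 to 4. The cKO libraries spread to both sides of the wild type, and the difference was 0.00 (SE 0.20) on the log2 scale. Ndufa4, which is now counted as a subunit of complex IV, was at 144.3, 126.5 and 118.7 FPKM in wild type and at 139.6, 170.2, 156.2 and 134.1 FPKM in cKO. Its groups overlapped (log2 0.21, SE 0.20).

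Ndufs8, an iron-sulfur core subunit, was at 79.8, 74.5 and 66.9 FPKM in wild type 1 to 3 and at 57.4, 65.2, 63.1 and 66.5 FPKM in cKO 1 to 4. Every cKO library lay below every wild type library, by a narrow margin, with a log2 difference of -0.22 (SE 0.18, limma adjusted p = 0.86). Ndufb9, an accessory subunit, had the largest positive difference of complex I at 0.35 (SE 0.25, limma adjusted p = 0.794). It was at 66.6, 54.2 and 50.7 FPKM in wild type and at 66.6, 75.8, 100.8 and 53.8 FPKM in cKO, so that its high values were those of lane 7 and of cKO 1. Ndufa6, also accessory, was at 101.2 ± 5.10 FPKM (SD, n = 3) in wild type and 86.4 ± 10.8 FPKM (SD, n = 4) in cKO, with overlapping groups.

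The symbol pattern also took in Ndufaf1 to Ndufaf7, proteins that help to assemble complex I and do not stay in it. They were low, with a median of 2.32 to 4.47 FPKM over the libraries against 29.1 to 41.4 FPKM for the structural subunits of complex I. The difference of cKO from wild type was negative in 6 of 7 (median -0.18, and -0.12 with the lane term), and 0 of 7 were called. Over all 10065 genes tested it was negative in 6191 (median -0.09, and 0.00 with the lane term).

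Complex II, succinate dehydrogenase, is the only one made from nuclear genes alone and also belongs to the citric acid cycle. Sdha, its flavoprotein, was at 34.2, 52.9 and 50.4 FPKM in wild type 1 to 3 and at 44.7, 24.0, 35.5 and 57.4 FPKM in cKO 1 to 4. The 3 lowest libraries were those of lane 7, and the genotypes overlapped (log2 -0.22, SE 0.31). Sdhb, the iron-sulfur subunit, did not share this order, with 69.6, 60.7 and 52.7 FPKM in wild type and 53.3, 57.6, 57.0 and 59.5 FPKM in cKO. Sdhd, a membrane anchor, was at 35.1 ± 2.66 FPKM (SD, n = 3) and 37.0 ± 6.07 FPKM (SD, n = 4).

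Complex III, the cytochrome bc1 complex, was led by Uqcrh, the hinge subunit that touches cytochrome c1. It was at 244.0, 207.9 and 197.8 FPKM in wild type 1 to 3 and at 163.6, 212.3, 204.3 and 169.2 FPKM in cKO 1 to 4. The groups overlapped in the lower wild type and higher cKO values (log2 -0.21, SE 0.21, limma adjusted p = 0.915). Uqcrfs1, the Rieske iron-sulfur protein, was at 52.3 ± 0.383 FPKM (SD, n = 3) in wild type, while cKO libraries ranged from 38.8 to 55.6 FPKM. Uqcr11, a small accessory subunit, was at 30.1 ± 1.49 FPKM (SD, n = 3) and 35.8 ± 6.08 FPKM (SD, n = 4). Uqcr10 and Uqcrc1, an accessory and a core-protein subunit, differed by 0.03 (SE 0.19) and -0.02 (SE 0.20) on the log2 scale.

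Complex V, the ATP synthase, held the most abundant member of all 82, Atp5e, the epsilon subunit of the stalk. It was at 321.8, 312.6 and 319.1 FPKM in wild type 1 to 3 and at 270.7, 381.7, 292.4 and 253.6 FPKM in cKO 1 to 4. The cKO libraries lay on both sides of a tight wild type group. Atp5b, the catalytic beta subunit, was at 218.6, 225.8 and 212.8 FPKM in wild type and at 222.7, 182.5, 276.7 and 234.9 FPKM in cKO. Atp5a1 and Atp5c1, the alpha and gamma subunits, differed by -0.09 (SE 0.22) and -0.12 (SE 0.18) on the log2 scale, and Atp5j2, the f subunit, by 0.16 (SE 0.21).

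Atp5sl had the most negative difference of the 82. Despite its symbol, its product is known to act in complex I assembly. It was at 14.6, 17.9 and 17.1 FPKM in wild type 1 to 3 and at 13.6, 8.35, 10.5 and 18.7 FPKM in cKO 1 to 4. The highest library was nevertheless a cKO library, and the log2 difference of -0.42 (SE 0.28) had a 95% interval from -1.06 to 0.23 (limma adjusted p = 0.765).

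The c subunit forms the rotor ring and is encoded by 3 genes whose mature proteins are identical, Atp5g1, Atp5g2 and Atp5g3. Atp5g3 was at 107.4 ± 5.93 FPKM (SD, n = 3) in wild type and 111.2 ± 14.1 FPKM (SD, n = 4) in cKO, and Atp5g1 at 12.7 ± 0.637 and 14.2 ± 3.40 FPKM. Within a library, Atp5g1 over Atp5g3 was -3.03 ± 0.0723 on the log2 scale in wild type and -2.96 ± 0.233 in cKO (two-sided exact permutation p = 0.571, adjusted p = 0.762 over 4 pairs). Atp5g2 was listed at 0.00 to 0.189 FPKM, which is taken up below with the near-identical copies.

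Complex IV, cytochrome c oxidase, holds several subunits with tissue-dependent paralogues. The promoters of 2 paralogue pairs are shown, although the paralogue results below rest on FPKM alone. They are the 250 bases upstream of the start in RefSeq (GRCm38.p6, 5′ to 3′ on the gene's strand, each on the minus strand). Capitals mark a match to the GABPA motif described below, on the other strand. Cox6b1 is at chr7:30626115-30626364, Cox6b2 at chr7:4753095-4753344, Cox7a2 at chr9:79759854-79760103 and Cox7a2l at chr17:83514334-83514583.
Cox6b1: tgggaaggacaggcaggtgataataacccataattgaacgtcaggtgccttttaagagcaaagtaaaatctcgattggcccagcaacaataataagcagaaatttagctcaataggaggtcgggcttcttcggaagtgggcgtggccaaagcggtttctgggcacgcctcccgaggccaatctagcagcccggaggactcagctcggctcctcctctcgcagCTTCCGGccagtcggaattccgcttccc
Cox6b2: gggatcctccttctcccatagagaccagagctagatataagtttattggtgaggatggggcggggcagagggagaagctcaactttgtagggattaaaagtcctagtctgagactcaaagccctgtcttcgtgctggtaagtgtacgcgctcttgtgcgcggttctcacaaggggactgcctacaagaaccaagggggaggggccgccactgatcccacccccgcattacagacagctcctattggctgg
Cox7a2: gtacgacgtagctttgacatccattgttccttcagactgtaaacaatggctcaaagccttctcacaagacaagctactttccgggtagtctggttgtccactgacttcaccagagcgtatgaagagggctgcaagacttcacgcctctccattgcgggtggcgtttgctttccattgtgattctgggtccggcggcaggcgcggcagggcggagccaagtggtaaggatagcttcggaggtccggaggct
Cox7a2l: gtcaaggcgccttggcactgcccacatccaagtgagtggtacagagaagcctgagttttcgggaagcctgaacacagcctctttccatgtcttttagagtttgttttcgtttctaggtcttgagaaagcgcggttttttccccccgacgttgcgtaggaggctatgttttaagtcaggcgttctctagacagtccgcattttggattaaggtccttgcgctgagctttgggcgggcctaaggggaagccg

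Cox6b1 encodes the common form of subunit 6B, at the contact between the monomers of the dimer. It was at 146.8, 142.9 and 145.3 FPKM in wild type 1 to 3 and at 180.9, 148.5, 174.7 and 193.6 FPKM in cKO 1 to 4. Every cKO library was above the wild type, cKO 2 only just. The log2 difference of 0.26 (SE 0.20) had a 95% interval from -0.19 to 0.71 (limma adjusted p = 0.821 without and 0.428 with the lane term).

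Cox6b2 encodes the form of 6B known from testis. It was at 1.65, 0.811 and 0.484 FPKM in wild type 1 to 3 and at 2.03, 4.45, 7.57 and 0.738 FPKM in cKO 1 to 4. The 3 highest libraries were cKO 3, cKO 2 and cKO 1, but cKO 4 lay below wild type 1 and 2. With a wild type mean of 0.982 FPKM and a cKO mean of 3.70 FPKM, the gene passed the minimum of 1 FPKM only through the cKO libraries, so its p-values are no support for a difference. The log2 difference was 1.25 (SE 0.60, 95% interval -0.11 to 2.61, limma adjusted p = 0.52). It was 1.01 (SE 0.29, limma adjusted p = 0.0521) with the lane as a term, 0.64 within lane 5 and 1.55 within lane 7. Over the alternatives its adjusted p ranged from 0.0154, within lane 7 alone, to 1.0. Lane 7 holds 1 wild type library, which that fit assumes to vary like the other libraries. The gene was also higher in lane 7 by 1.47 (limma adjusted p = 0.00179).

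The order of the 7 libraries by Cox6b2 was the same as by the erythroid list score, the mean log2(FPKM + 0.5) of the tested erythroid markers. The score stood at 6.02, 3.80 and 2.51 for wild type 1 to 3, against 6.44, 6.91, 7.70 and 3.08 for cKO 1 to 4. Atpif1, the inhibitor of the ATP synthase and no member, was at 126.5, 51.9 and 39.1 FPKM in wild type and at 133.6, 202.7, 302.9 and 55.3 FPKM in cKO. Its order differed from that of the score only in that cKO 4 stood above wild type 2 (log2 1.19, SE 0.59, limma adjusted p = 0.546). The same score over the 14 proliferation genes ordered the libraries nearly as Cox6b2 did. It differed in placing cKO 4 above wild type 2 (2.63 and 2.55) and cKO 1 above cKO 2 (4.11 and 4.09). The part of erythroid RNA or of proliferating cells in Cox6b2 and Atpif1 was not tested. Atpif1 was chosen after its values were seen.

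Cox7a2l encodes a relative of subunit 7A. It was at 126.2, 116.9 and 104.8 FPKM in wild type 1 to 3 and at 91.3, 74.5, 81.3 and 102.2 FPKM in cKO 1 to 4. All 4 cKO libraries were below the wild type, within each lane too, although cKO 4 came close to wild type 3. The log2 difference was -0.41 (SE 0.20, 95% interval -0.87 to 0.05, limma adjusted p = 0.536), with -0.19 within lane 5 and -0.69 within lane 7. Its adjusted p was 0.219 with the lane term and 0.0217 with centring and the lane term, and ranged from 0.0217 to 1.0 over the alternatives.

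Cox7a2, the common form of subunit 7A, was at 99.1, 80.3 and 76.3 FPKM in wild type 1 to 3 and at 82.6, 112.3, 113.9 and 78.7 FPKM in cKO 1 to 4. Its 3 highest libraries were those of lane 7 (limma adjusted p = 0.0342 for the lane). The log2 ratio of Cox7a2l over Cox7a2 within a library does not depend on scaling. It was 0.35, 0.54 and 0.46 in wild type and 0.14, -0.59, -0.48 and 0.37 in cKO. The groups touched, since cKO 4 stood just above wild type 1. The ratio differed by -0.59, with -0.24 within lane 5 and -0.88 within lane 7 (two-sided exact permutation p = 0.114, adjusted p = 0.457 over 4 pairs). The smallest p that 3 and 4 libraries allow is 0.0571, so no ratio could pass 0.05.

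For Cox6b2 over Cox6b1 the log2 ratio was -6.69 ± 0.562 (SD, n = 3) in wild type and -5.70 ± 1.29 (SD, n = 4) in cKO (two-sided exact permutation p = 0.4). Cox6a1 over Cox6b1, a pair of unrelated subunits kept as a reference, was at -0.36 ± 0.0499 and -0.41 ± 0.321 (two-sided exact permutation p = 0.914). The remaining pairs had a member below 1 FPKM and were not tested.

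Cox4i1, the common form of subunit 4, was the most abundant complex IV gene, with 335.4, 303.0 and 264.0 FPKM in wild type 1 to 3 and 245.0, 293.1, 314.5 and 269.1 FPKM in cKO 1 to 4. Its groups overlapped between 264.0 and 314.5 FPKM (log2 -0.10, SE 0.22). Cox8a was at 150.5 ± 21.3 FPKM (SD, n = 3) and 167.2 ± 34.5 FPKM (SD, n = 4), with overlapping groups.

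**Figure D3:**
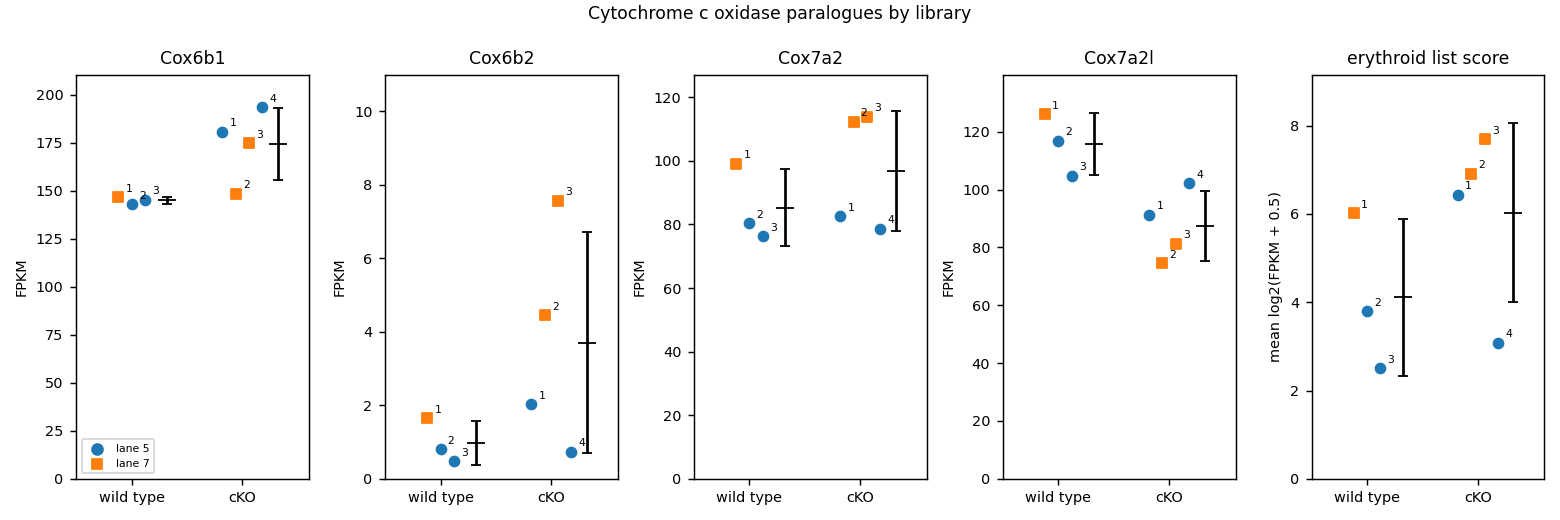
The first 4 panels show FPKM per library for Cox6b1, Cox6b2, Cox7a2 and Cox7a2l, and the last the erythroid list score, by genotype. Circles are lane 5, squares lane 7, numbers are replicates, and bars are the mean and SD. The cKO libraries of Cox6b1 lie above and those of Cox7a2l below the wild type, and Cox6b2 orders the libraries as the erythroid score does.

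The second comparison was between lanes, at fixed genotype. In limma, 12 of 82 members differed between lane 7 and lane 5. Of these 9 were lower in lane 7, against 58.2% of all genes, and 3 were higher (Cox6b2, Cox7a2 and Ndufb9), against 8.67%. The 12 became 6 without wild type 2, 7 without wild type 1 or wild type 3, and 8 or 9 without a cKO library. The median difference was -0.04 on the log2 scale for the members and -0.50 for all genes. Relative to the other genes the members therefore stood higher in lane 7. After each library was centred on its median, which brought the median of all genes to -0.01, 57 of 82 members were higher in lane 7 and 0 lower, against 24.3% of all genes higher. Whether a member counts as equal or higher in lane 7 thus turns on the scaling.

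Of the assembly factors Ndufaf1 to Ndufaf7, 5 were called lower in lane 7, and all 7 had a negative difference, with a median of -0.48 close to that of all genes. Ndufaf1 was at 5.11, 7.11 and 7.46 FPKM in wild type 1 to 3 and at 7.12, 3.19, 4.59 and 8.65 FPKM in cKO 1 to 4, so that the 3 lane 7 libraries were the lowest. After centring, 0 of 7 differed between lanes (median 0.02). Sdha, lower in lane 7 by -0.71 on the log2 scale (limma adjusted p = 0.00636), was the subunit with the most negative lane difference. The assembly factors were named after their values were seen.

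Transcript length varied with the lane difference. Members with transcripts shorter than 700 bases had a median lane difference of 0.07 (32 genes), against -0.07 for 254 other genes of that length. From 1000 to 2000 bases it was -0.11 (24 members) against -0.38 (2325 genes), and from 2000 bases on -0.34 (9 members) against -0.60 (6054 genes). Across the 81 members with a GENCODE M21 length, length and lane difference had a Spearman rho of -0.44, and across 9130 other genes of -0.30. These are descriptions across genes that share libraries, and genes are not independent replicates. Of the members, 32 of 81 were shorter than 700 bases, and of the other genes 254 of 9130. The median member stood above the median other gene in each of the bins, of which the last holds few members.

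**Figure D4:**
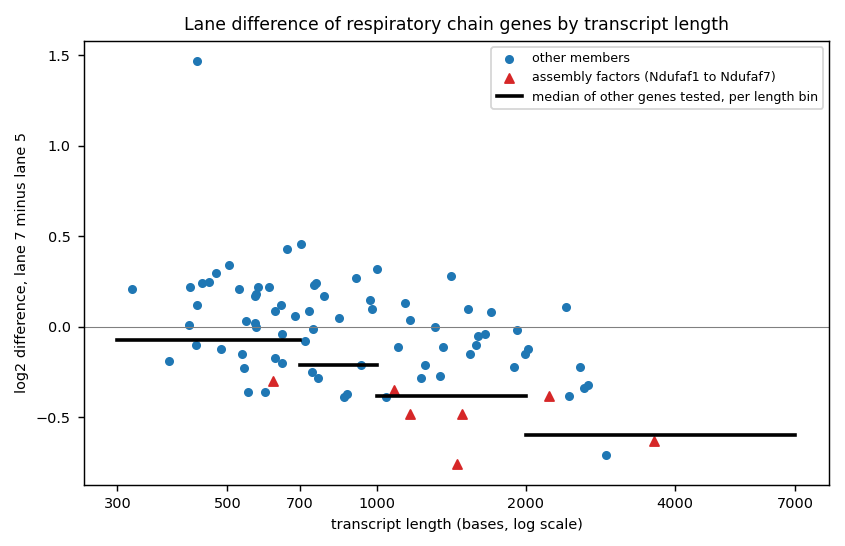
Each point is a respiratory chain gene, with transcript length on a log scale against the log2 difference of lane 7 minus lane 5, and triangles are the complex I assembly factors. Black lines are the medians of the other genes tested in 4 length bins, from -0.07 below 700 bases to -0.60 from 2000 bases on. Most members lie above the line of their bin, and longer ones lie lower, and Cox6b2 is the top point at 1.47.

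The difference of cKO from wild type itself did not pass a test for a lane dependence in any member. The interaction of genotype and lane was called for 0 of 82 members in limma, against 0.0497% of all genes, with a smallest adjusted p of 0.992 and 0 members at an unadjusted p under 0.05. Lane 7 holds 1 wild type library, so this test rests on that library for the lane 7 difference. With centring and the lane as a term, 3 members were called lower in cKO, Cox7a2l and Atp5sl among them, against 22.1% of all genes called in either direction. The median of all members was then -0.08 and that of all genes -0.09.

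The 9 members below 1 FPKM were of 2 kinds. Of the 7 members that are isoforms known from other tissues or conditions, 6 were below it: Cox4i2, Cox7a1, Cox7b2, Cox8b, Cox8c and Ndufa4l2. Cox7b2 and Cox8c, known from testis, were listed at 0 in all 7 libraries. Cox7a1, the heart and muscle form of 7A, was at 0.594 ± 0.00726 FPKM (SD, n = 3) in wild type and 0.546 ± 0.194 FPKM (SD, n = 4) in cKO, far under Cox7a2. The seventh isoform, Cox6b2, is the one that passed the minimum.

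The other 3, Atp5g2, Atp5l and Ndufs5, encode subunits that most cells use, and each has a near-identical copy elsewhere in the genome. Here a copy is a transcript of another gene that matches at 98% identity or more over at least 100 bases. Such copies were found for 14 of 90 members with a GENCODE M21 transcript. Members with a copy had a median of 8.22 FPKM and none was above 34.8 FPKM, while the 76 without had a median of 42.6 FPKM and reached 307.4 FPKM. Ndufs5, an accessory subunit of complex I, was listed at 0 to 0.00133 FPKM. Its copy, listed as BC002163 and 99.373% identical over 319 bases, was at 32.6, 25.6 and 15.4 FPKM in wild type 1 to 3 and at 22.2, 22.4, 24.1 and 19.8 FPKM in cKO 1 to 4 in 1 of its 2 entries. Levels of members with copies are thus uncertain, because reads that fit both places may have been split or given to either, and how they were treated is not given in the sources used here. Of the genes described above, Atp5g1 and Uqcr11 are among the 14.

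A promoter was found in RefSeq for 67 of the 82 members. Short motifs of 3 factors known to act on respiratory chain genes were searched on both strands of the 250 bases upstream. GCATGCG, from the NRF1 motif, stood in 7 promoters (10.4%), against 6.19% of the 7549 promoters of genes tested and 3.07% of all 27025. CCGGAAG, from the GABPA motif, stood in 11 (16.4%), against 15.9% and 7.05%. GATGGCG, from the YY1 motif, stood in 2 (2.99%), against 4.07% and 2.25%. Of the 4 promoters printed above, Cox6b1 alone held one of these strings. The motifs do not overlap in letters, a match is no proof of a site, and these shares were not tested.

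Other mitochondrial genes were taken from lists of their functions. Of 182 such genes tested, 0 were called between genotypes by limma without the lane term, 3 had an unadjusted p under 0.05 and 2 were called with the lane term. Over all genes tested the shares were 1.32%, 10.7% and 10.8%. Complex IV assembly factors gave 0 of 24 called without the lane term (7 positive, 17 negative, median log2 -0.10), the citric acid cycle with pyruvate dehydrogenase 0 of 17 (median -0.15), and regulators of mitochondrial biogenesis 0 of 15 (2 positive, 13 negative, median -0.24). Mitochondrial ribosomal proteins gave 0 of 74 (13 positive, 61 negative, median -0.17). Complex I assembly, a list of 14 that shares 8 genes with the members, gave 0 called with 13 negative (median -0.20). Assembly of complex II (0 of 2, median -0.37) and of complex III with the cytochromes c (0 of 7, median -0.21) likewise gave 0 called, as did assembly and inhibition of complex V (0 of 3, median -0.02). These values stand beside a median of -0.09 for all genes tested, of which 3874 were positive and 6191 negative. In lane 7, 31 of 74 ribosomal proteins and 13 of 15 regulators were called lower, against the 58.2% of all genes given above.

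In the lists of coenzyme Q with other electron donors (17 tested) and of mitochondrial carriers (9 tested), 1 gene each was called higher in cKO with the lane as a term, and 0 without it. Sqrdl, which feeds electrons from sulfide into ubiquinone, was at 1.50, 0.816 and 0.646 FPKM in wild type 1 to 3 and at 3.39, 2.92, 3.53 and 2.52 FPKM in cKO 1 to 4. The groups did not overlap, with a log2 difference of 1.30 (SE 0.27, limma adjusted p = 0.0581) and of 1.25 (SE 0.19, limma adjusted p = 0.00131) with the lane term. Over the alternatives its adjusted p ranged from 0.00131 to 0.368. Its wild type mean was 0.987 FPKM and its cKO mean 3.09 FPKM, so it too passed the minimum only through the cKO libraries, and the call is no support for a difference.

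Ucp2, an uncoupling protein family carrier of the inner membrane, was at 31.8, 34.2 and 34.8 FPKM in wild type 1 to 3 and at 54.0, 54.9, 75.6 and 49.6 FPKM in cKO 1 to 4. Again the groups did not overlap. The log2 difference was 0.77 (SE 0.21, limma adjusted p = 0.143) and 0.75 (SE 0.18, limma adjusted p = 0.0182) with the lane term, and the adjusted p ranged from 0.018 to 0.553 over the alternatives. The monocyte, macrophage and dendritic marker sums given above were apart between the genotypes in the same direction, and so were those of neutrophils (28.0 to 40.6 FPKM in wild type, 85.2 to 189.9 FPKM in cKO), NK cells (16.2 to 20.2 and 36.2 to 79.4 FPKM) and platelets (24.4 to 40.0 and 42.6 to 114.1 FPKM). With the lane term, 15 of 15 monocyte, 6 of 7 neutrophil, 6 of 7 NK and 5 of 6 platelet markers were called higher in cKO. T cell markers, with 6 of 8 called, overlapped in their sums (15.5 to 29.4 and 18.2 to 59.3 FPKM). Over all genes tested, 965 of 10065 were called higher in that fit. The called markers Camp, Elane, Mpo, Retnlg, Klrb1c, Klre1 and Cd8b1 had wild type means under 1 FPKM. Those genes passed the minimum only through the cKO libraries, so their calls are no support for a difference. The part of these cells in Sqrdl and Ucp2 was not tested.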

How the data were processed

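RNA was sequenced in 7 libraries (3 wild type, 4 cKO), grouped by the sample titles. The kit named in the labels does not mark strand. The authors deposited FPKM and a status for every gene in every library, per the file headers. TopHat2, Cufflinks, Cuffdiff and the mm9 build are named, without versions or roles, in the submitters' processing notes. The listed positions overlap the GRCm38 gene for 90 of the 91 members. The authors' deposited comparison table holds a p-value, a q-value and a signed test statistic, a score, per gene. No read counts were given, so depth is unknown and counting error could not be computed.

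Genes with status OK in every library and a mean FPKM of at least 1 entered limma 3.58.1 (R 4.3.3, eBayes with trend) as log2(FPKM + 0.5). Tests were two-sided, p-values were adjusted by Benjamini-Hochberg over 10065 genes, and the threshold was 0.05. Fold changes on this scale understate those of low genes. The lane was a term in an alternative fit that is given beside it, since the lanes differ widely. Paralogue ratios used an exact permutation test (scipy 1.17.1), copies were sought with BLAST 2.17.0, and plots were drawn with matplotlib 3.10.9. Alternatives covered pseudocount, low-value filter, limma settings, scaling, lane, membership, replicate numbers and each library left out.

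The members and lists were chosen with earlier results of these data known. In each complex, the genes named were the 3 most abundant and the 3 with the smallest p, members past the threshold, and the paralogues. In the other lists they were those past the threshold. A few items, among them 1 member, are not reported here by name.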

Additional observations from a re-analysis of the deposited data

Results flagged for a closer look

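Among the 28 named members that were tested, Cox6a1, the common form of subunit 6A of complex IV, had 1 library far from the others of its group. In the cKO group it was at 171.9 FPKM in cKO 3 and at 114.1 to 122.1 FPKM in the other libraries. The gap took up 0.862 of the whole range of the group, above Dixon's critical value for 4 samples. Chance alone marks about 1 in 20 groups. The 3 wild type libraries were at 112.0, 115.8 and 111.0 FPKM, and groups of 3 were not examined in this way.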

How the results depend on the processing

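No member was called in the comparison of cKO with wild type in the fit without a lane term, nor under another pseudocount, filter, limma setting or threshold, nor with either scaling alone, the lane term, lane 5 alone, structural subunits alone or any library left out. Within lane 7 alone, which holds 1 wild type library assumed to vary like the others, 1 was called (Cox6b2), with centring and the lane term 3, and with quantile normalization and the lane term 2 (Ndufaf5 and Atp5sl). With the lane term, leaving out a library gave 0 to 2 called members: Cox6b2 without wild type 2 or cKO 1, and Cox6b2 with Atp5sl without cKO 4. The complex IV median of 0.16 became 0.08 with centring and the lane term and 0.10 with quantile normalization and the lane term, and ranged from 0.12 to 0.21 with a library left out. Medians of the other complexes moved by less than the spread between libraries. With centring and the lane term they moved down as that of complex IV did, to -0.13 in I, -0.13 in II, -0.09 in III and -0.04 in V.

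The number of all genes called, 133, was unstable. It was 612 within lane 5, 283 within lane 7, 1085 with the lane term, 304 with centring, 2228 with centring and the lane term, 1982 with quantile normalization and the lane term, 6 at a minimum of 5 FPKM, 1 with no minimum, 55 with a pseudocount of 1, and 0 to 220 with a library left out (220 without wild type 1). The 12 members that differed between lanes became 57 with centring, 26 with quantile normalization, 6 among structural subunits alone and 6 to 9 with a library left out, the lowest without wild type 2 and 7 without wild type 1 or wild type 3.

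Deviations from the group means of libraries with the same replicate number correlated at -0.407, -0.502 and -0.692. Libraries with the same number were always in opposite lanes, and the lane was not removed from these deviations. The correlations therefore cannot show whether the replicate numbers pair the samples. With the replicate block, 0 genes and 0 members were called.

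Of 587 alternative values of the 28 named members, 553 kept direction and side of the threshold, 4 newly passed it and 30, in 10 members and none past the threshold, changed sign. Within lane 5 the log2 fold change became 0.04 for Atp5a1 and 0.08 for Ndufa3. Within lane 7 it became 0.05 for Atp5e, -0.05 for Atp5g1, -0.03 for Atp5g3, -0.07 for Uqcr10 and 0.07 for Uqcrc1. With the lane term it was 0.02 for Ndufa3. With centring and the lane term it was -0.04 for Atp5b, -0.03 for Atp5g3 and -0.08 for Uqcr10. With quantile normalization it was -0.07 for Atp5b and 0.00 for Ndufa3, and with the lane term added 0.00 for Atp5b, 0.06 for Ndufa3 and 0.00 for Uqcr10. With the replicate block it was -0.02 for Atp5g3 and -0.01 for Sdhd. With a library left out the ranges were -0.17 to 0.05 for Atp5a1, -0.05 to 0.15 for Atp5b, -0.02 to 0.12 for Atp5g3, -0.07 to 0.06 for Ndufa3, -0.19 to 0.01 for Sdhb, -0.01 to 0.18 for Sdhd, -0.04 to 0.09 for Uqcr10 and -0.11 to 0.06 for Uqcrc1. Among the paralogue ratios, the difference of Cox6a1 over Cox6b1 (-0.06) became 0.03 without cKO 1 and 0.04 without cKO 4, in a range of -0.19 to 0.04 with a library left out. The cause of these changes was not tested. Quantile normalization with the lane term, the lane term with a library left out, the paralogue alternatives, and for the lanes the quantile and structural-subunit values, were chosen after seeing the data. With 3 and 4 libraries and unknown depth, changes well under 2-fold in a single gene could go undetected.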
